A study of Homo sapiens with 6 samples.

Results

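The solute carrier (SLC) superfamily holds the membrane proteins that move small molecules into and out of cells and organelles, and 9 of its families carry most amino acids and several neurotransmitters. The genes described here are those whose symbol places them in SLC1A, SLC3A, SLC6A, SLC7A, SLC17A, SLC32A, SLC36A, SLC38A or SLC43A, with SLC7A11 left out. The rule used the symbol only and no measured value. It selected 68 of the 62696 genes in the count tables.

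RNA was sequenced from DMS53, an established small cell lung cancer (SCLC) cell line with neuroendocrine (NE) features. In the control group (3 libraries) the cells carried the empty lentiviral plasmid, and in the OC2-OE group (3 libraries) they carried the plasmid that overexpresses OC2, the transcription factor encoded by ONECUT2. Both groups were transduced with lentiviral particles, selected with puromycin and grown in RPMI-1640 with FBS, so transduction and drug selection were common to all libraries. The OC2 protein was fused to a monomeric green fluorescent protein and expressed constitutively, and each group was a selected pool of 1 cell line with no parental, untransduced library analysed here. The study describes the RNA-Seq experiments of a condition as independent, and the labels do not say whether the libraries came from separate cultures. P-values are set against the spread between these libraries and do not cover spread between separately transduced pools. Within a group, the variance between libraries was 1.31 to 2.1 times that of counting alone.

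The libraries held between 16533284 and 19099337 counted read pairs. ONECUT2 was read at 24.6 ± 0.332 CPM (counts relative to the TMM-scaled library total, mean ± SD, n = 3) in control and 3944 ± 70.3 CPM (SD, n = 3) in OC2-OE libraries, with 394 to 465 counts in control and 68853 to 74031 in OC2-OE libraries, so each library matched its label. Of the NE markers CHGA, CHGB, SYP, NCAM1, INSM1 and NEUROD1, all 6 were detected in every group, and their summed level was 1310 to 1320 CPM in control libraries and 684 to 700 CPM in OC2-OE libraries. NEUROD1, NCAM1 and INSM1 fell the most, with log2 fold changes of -2.32, -2 and -1.93, whereas CHGA rose. PTPRC, which marks leukocytes, and CD3E, which marks T cells, had 0 counts in control, with 3 and 0 counts in OC2-OE libraries. The sum of the leukocyte marker list, in which LYZ held most, was 0.299 to 0.589 CPM in control and 1.9 to 2.69 CPM in OC2-OE libraries. The sum of 4 fibroblast markers, nearly all of it COL1A1, was 20.9 to 23.8 CPM in control and 28.1 to 32 CPM in OC2-OE libraries, that of 3 endothelial markers 2.99 to 3.96 and 2.36 to 3.35 CPM, and that of 3 astrocyte markers 18.6 to 22.1 and 17.7 to 19.2 CPM. The part of these markers in the results was not tested.

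Amino acid carriers work as a network. Exchangers such as SLC1A5 and the heterodimers of SLC3A2 with SLC7A light chains swap one amino acid for another, sodium-coupled carriers such as those of SLC38A load the cell with glutamine and small neutral amino acids, and SLC36A and some SLC38A members act at the lysosome, from which amino acids signal to mTORC1, the kinase complex that couples nutrients to growth. SLC6A carriers clear glycine, GABA and monoamines from the cell surface, and SLC17A6, SLC17A7, SLC17A8 and SLC32A1 fill synaptic vesicles with glutamate or GABA. NE tumour cells share parts of the secretory and transmitter machinery of neurons. A few genes of the 9 families carry other substrates: SLC6A8 takes up creatine, SLC43A3 purine nucleobases, and SLC17A1 to SLC17A4 phosphate, urate and other organic anions.

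Transporter expression differed widely between OC2-OE and control cells, in both directions and within families. Of the 68 genes, 42 had enough counts to be tested with edgeR's quasi-likelihood test, and 37 of these passed an adjusted p of 0.001 (Benjamini-Hochberg, over 17307 genes). At this threshold 56.5% of all tested genes were called, and 63.6% of the other SLC genes (140 of 220), against 88.1% of the tested transporters. Expression was higher in OC2-OE for 21 transporters (27.8% of all tested genes were called higher) and lower for 16 (28.7% were called lower). Requiring at least a 2-fold change as well left 8 higher and 7 lower, where 8.29% and 9.04% of all tested genes lay past the same limits, and 23.6% of other SLC genes in either direction. In 38 of the 42, every OC2-OE library lay on one side of every control library, which held for 73.2% of all tested genes.

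The median log2 fold change of the 42 was 0.42, beside 0.01 for all tested genes and 0.12 for other SLC genes. The median size of the change, in absolute log2, was 0.74 against 0.38 over all tested genes. The tested transporters were expressed at a median of 25.2 CPM, all tested genes at 20 CPM and other SLC genes at 22.7 CPM. SLC17A2, SLC17A4 and SLC7A3 reached the test only through their OC2-OE libraries, and SLC17A7 only through its control libraries. In bulk RNA, fewer cells that express a gene and less RNA per cell cannot be told apart.

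**Figure D1:**
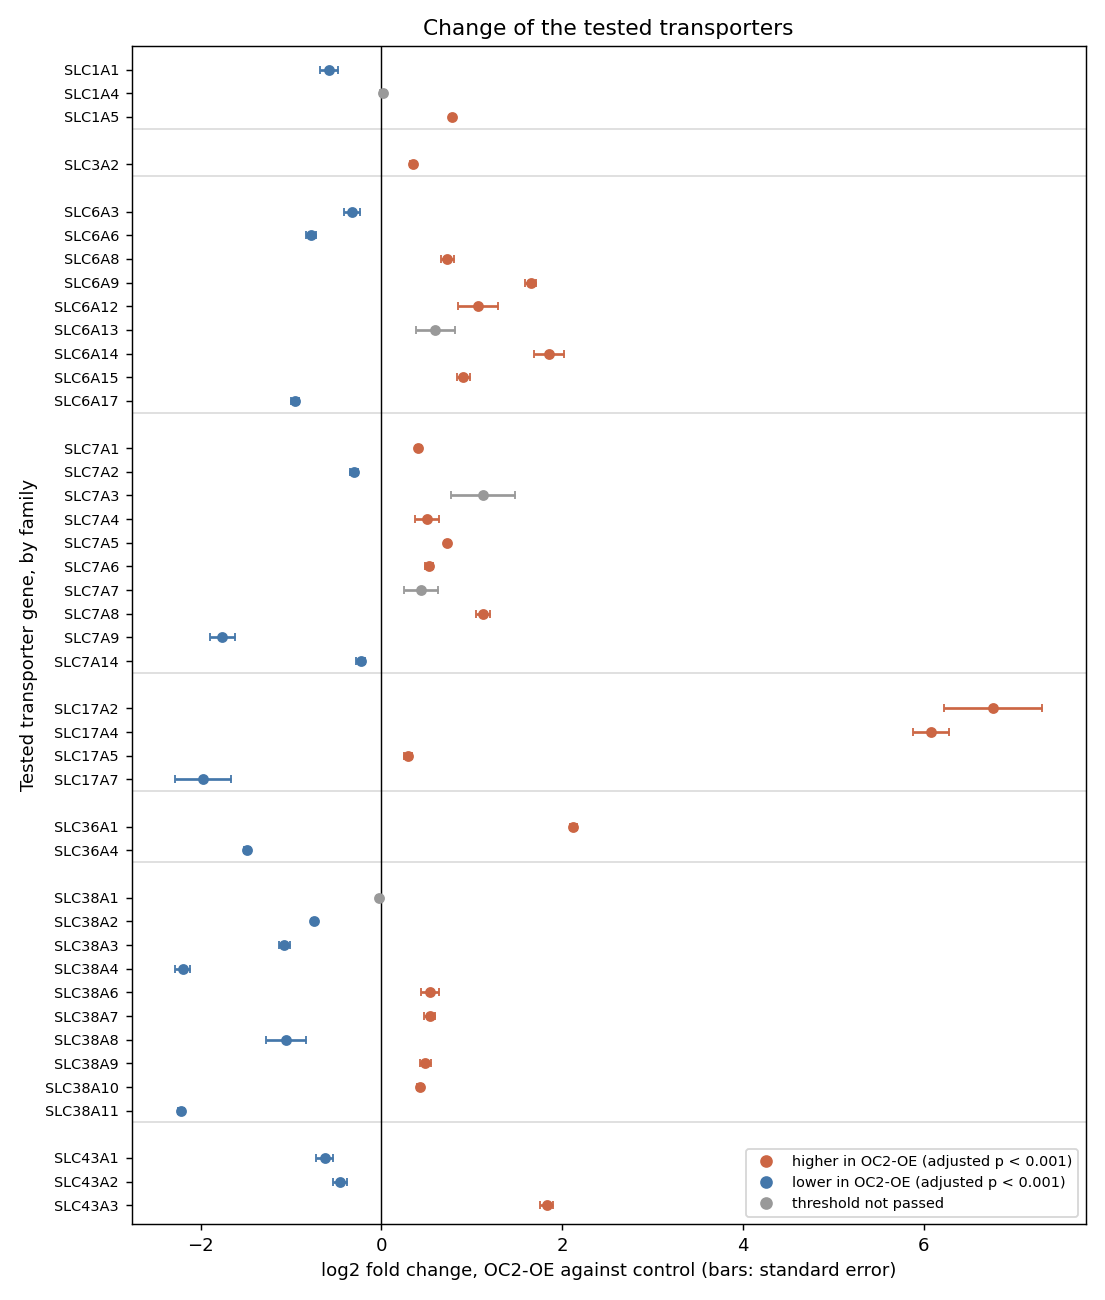
Log2 fold change of OC2-OE against control (horizontal axis) for the 42 tested transporters, arranged by family, with bars for the standard error and colour for the call at an adjusted p of 0.001. Higher and lower genes stand side by side in SLC1A, SLC6A, SLC7A, SLC17A, SLC36A, SLC38A and SLC43A, and only SLC17A2 and SLC17A4 lie above 6.

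Members that were not tested had few or no counts. Of these 26, 7 had 0 counts in all 6 libraries, among them SLC1A6, SLC6A2, SLC6A11, SLC7A13, SLC17A6 and SLC32A1. Over the 6 libraries a count of 0 allows up to 0.0282 CPM (3 counts), a limit for counting error only, as are all counting intervals given below.

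Levels were compared between genes as TPM, that is, per length of the annotated gene. In control cells SLC38A1 stood highest at 477 ± 9.68 TPM (SD, n = 3), followed by SLC38A2 at 397 ± 6.18 TPM and SLC1A5 at 382 ± 5.49 TPM. SLC7A5 was next at 189 ± 8.10 TPM, then SLC3A2 at 144 ± 5.46 TPM and SLC7A1 at 140 ± 5.37 TPM, a pair whose libraries overlapped. These are the carriers of bulk nutrition, for glutamine and small neutral amino acids (SLC38A1, SLC38A2, SLC1A5), large neutral amino acids (SLC7A5 with its heavy chain SLC3A2) and arginine and lysine (SLC7A1). The 5 highest genes held 61.4% of the summed transporter TPM, and 27 of the 68 genes were above 10 TPM in control and 28 in OC2-OE cells.

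In OC2-OE cells the order at the top changed. SLC1A5 stood first at 674 ± 16.9 TPM (SD, n = 3), followed by SLC38A1 at 482 ± 3.11 TPM, then SLC7A5 at 322 ± 12.3 TPM and SLC38A2 at 243 ± 2.78 TPM. SLC7A1 (191 ± 1.84 TPM) and SLC3A2 (188 ± 3.88 TPM) again overlapped. SLC38A11, next after SLC7A1 in control at 123 ± 1.37 TPM, was at 27.3 TPM, and SLC36A1, at 23.6 TPM in control, was at 106 ± 4.53 TPM, next below SLC38A10 (112 ± 1.04 TPM).

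By family, the summed level of SLC38A was lower in OC2-OE and that of most other families higher. SLC38A summed to 1200 ± 17.5 TPM (SD, n = 3) in control and 947 ± 7.21 TPM in OC2-OE cells, which was 46.4% and 31.9% of all transporter TPM. SLC1A summed to 467 ± 5.02 and 758 ± 18 TPM, and SLC7A to 454 ± 15.5 and 651 ± 13.9 TPM. The libraries of the groups did not overlap in any of these families. SLC6A was the exception, at 137 ± 6.28 TPM in control and 140 ± 2.66 TPM in OC2-OE, with overlapping libraries. Of its 9 tested genes, 8 were nevertheless called, where 56.5% of all tested genes were called. Family sums are dominated by 1 or 2 genes, SLC1A by SLC1A5 and SLC38A by SLC38A1 and SLC38A2, and they were not tested.

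**Figure D2:**
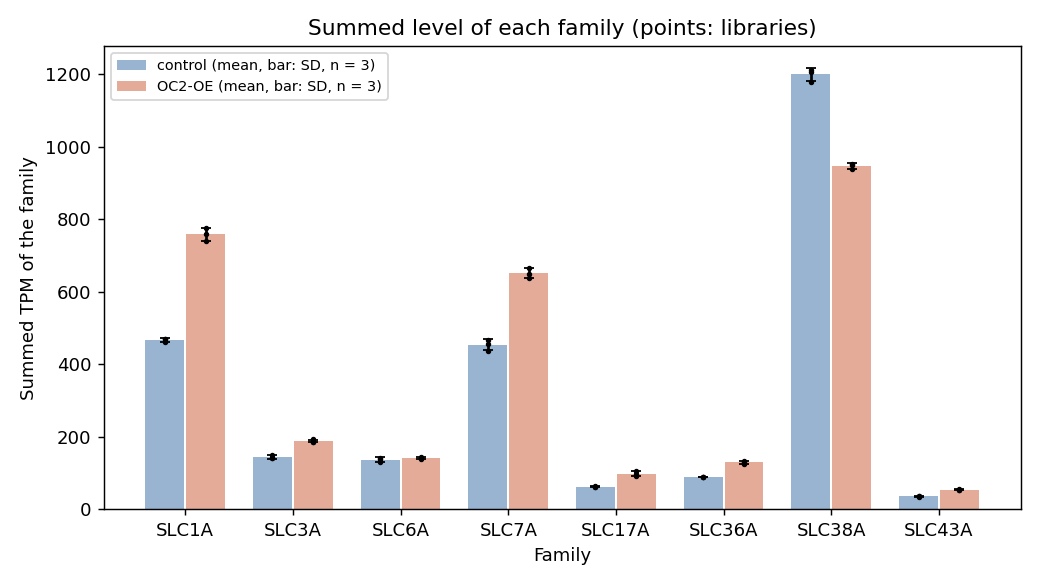
Summed TPM of each family (vertical axis, linear from 0) in control and OC2-OE cells, with bars for the mean, error bars for the SD over 3 libraries and points for single libraries. SLC38A is the only family shown with a lower sum in OC2-OE, and the sums of SLC6A overlap. SLC32A, at 0 counts, is not drawn.

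SLC1A and SLC38A hold the main surface carriers of glutamate, glutamine and small neutral amino acids. SLC1A5, the sodium-dependent exchanger that brings in glutamine, was read at 311, 309 and 315 CPM in control libraries 1 to 3 and at 549, 522 and 535 CPM in OC2-OE libraries 1 to 3. Every OC2-OE library was above every control library, with a log2 fold change of 0.78 (SE 0.02, adjusted p = 4.22e-60). SLC1A4, its relative for alanine, serine and cysteine, was at 122 ± 4.80 and 123 ± 3.43 CPM, with a log2 fold change of 0.02 (SE 0.03, adjusted p = 0.669). SLC1A1, the neuronal glutamate carrier, fell from 13.7 ± 1.71 to 9.17 ± 0.681 CPM, a log2 fold change of -0.58 (adjusted p = 8.71e-08). SLC1A2 and SLC1A3, which clear glutamate into astrocytes, had 24 and 1 counts in control and 30 and 4 in OC2-OE cells, too few to test.

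SLC38A split by gene, with 5 of its 10 tested members lower and 4 higher, where 28.7% and 27.8% of all tested genes were called. SLC38A1, the most abundant, was at 1200, 1161 and 1156 CPM in control and 1146, 1160 and 1150 CPM in OC2-OE libraries, overlapping between groups, with a log2 fold change of -0.03 (SE 0.02, adjusted p = 0.227). SLC38A2, a sodium-coupled carrier that is classically induced when amino acids are scarce, was at 641, 626 and 636 CPM in control and 373, 382 and 376 CPM in OC2-OE libraries. The groups were well apart, and SLC38A2 fell by 0.75 on the log2 scale (SE 0.02, adjusted p = 1.42e-60). SLC38A4, a further system A carrier, dropped from 31.6, 29.4 and 32 CPM to 6.68, 6.58 and 7.03 CPM, a log2 fold change of -2.20 (SE 0.08, adjusted p = 5.03e-49).

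SLC38A11, an orphan member whose substrates are little known, and SLC38A4 had the largest fitted falls of all transporters. Leaving out each library in turn gave log2 fold changes of -2.24 to -2.18 for SLC38A11 and -2.23 to -2.17 for SLC38A4. These ranges overlap, so the order of the 2 genes is not settled. SLC38A11 was at 225, 225 and 219 CPM in control libraries and 46.4, 47.5 and 50.1 CPM in OC2-OE libraries, a log2 fold change of -2.21 (SE 0.04, adjusted p = 1.25e-88). SLC38A3, the system N carrier for glutamine, histidine and asparagine, fell from 51.0, 48.2 and 52.3 CPM to 23.5, 22.1 and 26.3 CPM (log2 fold change -1.07, SE 0.06, adjusted p = 2.48e-35). SLC38A8 was low in both groups, with 153 counts in control and 78 in OC2-OE libraries, and fell from 2.94, 2.63 and 3.32 CPM to 1.46, 1.5 and 1.32 CPM (log2 fold change -1.05, SE 0.22, adjusted p = 1.46e-05). None of these overlapped between groups. SLC38A5, the other system N carrier, had 9 and 10 counts in all.

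The 4 SLC38A members that rose did so by less than 2-fold. SLC38A7 and SLC38A9 of this group have been placed at the lysosome. SLC38A7, for glutamine, went from 20.8 ± 0.299 to 30.2 ± 0.326 CPM (log2 fold change 0.53), and SLC38A9, the arginine sensor upstream of mTORC1, from 28.3 ± 2.39 to 39.6 ± 2.78 CPM (log2 fold change 0.48). SLC38A10 went from 157 ± 11.4 to 211 ± 1.96 CPM (0.43) and SLC38A6 from 8.75 ± 0.767 to 12.7 ± 0.914 CPM (0.53). Their adjusted p-values ran from 2.19e-20 for SLC38A10 to 1e-06 for SLC38A6.

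The proton-coupled SLC36A carriers moved in opposite directions. SLC36A1, which exports small amino acids from lysosomes and takes them up at the gut surface, was at 39.8, 41.2 and 39.7 CPM in control and 178, 167 and 182 CPM in OC2-OE libraries. Its rise, a log2 fold change of 2.12 (SE 0.04, adjusted p = 7.3e-82), was the largest of any transporter with more than 20 CPM in control. SLC36A4, a carrier with high affinity for proline and tryptophan, fell from 154, 152 and 153 CPM to 56.7, 54.9 and 52.4 CPM, a log2 fold change of -1.48 (SE 0.04, adjusted p = 1.41e-67). The libraries of the 2 groups lay far apart for both genes, and SLC36A2 and SLC36A3 had at most 3 counts in a group.

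Heteromeric carriers pair a heavy chain, SLC3A1 or SLC3A2, with a light chain of SLC7A that forms the pore. SLC3A2 was at 221, 222 and 235 CPM in control and 294, 284 and 284 CPM in OC2-OE libraries, higher in each OC2-OE library (log2 fold change 0.35, SE 0.03, adjusted p = 7.1e-24). Its light chain SLC7A5, the carrier of leucine and other large neutral amino acids, was at 220, 213 and 230 CPM in control and 364, 353 and 381 CPM in OC2-OE libraries (log2 fold change 0.73, SE 0.03, adjusted p = 3e-45). SLC7A8, with a similar but broader range of substrates, rose from 14.3, 13.7 and 12.7 CPM to 29.3, 30.2 and 29.7 CPM (log2 fold change 1.13, SE 0.07, adjusted p = 4.22e-29). SLC7A6, which exchanges cationic for neutral amino acids, rose from 58.0 ± 2.62 to 83.5 ± 2.23 CPM (log2 fold change 0.53, SE 0.04, adjusted p = 2.64e-22). SLC7A7, of the same function, was at 2.52 ± 0.271 and 3.42 ± 0.0381 CPM and missed the threshold (log2 fold change 0.44, SE 0.19, adjusted p = 0.0281). SLC7A10, the light chain for D-serine and small neutral amino acids, had 3 counts in control and 0 in OC2-OE cells, at the limit of detection in both.

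The cystine and cationic pair of kidney and gut went the other way in its light chain. SLC7A9 was at 9.58, 9.98 and 10.0 CPM in control and 3.13, 2.83 and 2.74 CPM in OC2-OE libraries (log2 fold change -1.76, SE 0.14, adjusted p = 1.99e-23). Its heavy chain SLC3A1 had 11 counts in control and 8 in OC2-OE cells, so the partner was barely detected in either group. SLC3A1 shares 26.9% of its annotated length with another gene on the same strand, and read pairs in that stretch could not be assigned. SLC7A13, another partner of SLC3A1, had 0 counts.

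Of the cationic amino acid carriers that need no heavy chain, SLC7A1 rose and SLC7A2 fell, both by less than 2-fold. SLC7A1, for arginine and lysine, went from 264 ± 8.94 to 351 ± 3.43 CPM (log2 fold change 0.41, SE 0.03, adjusted p = 6.86e-31), and SLC7A2 from 63.4 ± 2.09 to 51.5 ± 1.30 CPM (log2 fold change -0.30, SE 0.05, adjusted p = 3.74e-09). SLC7A3, with 28 and 65 counts, overlapped between groups (log2 fold change 1.12, SE 0.36, adjusted p = 0.00356), and it was past the threshold of 0.001 when control replicate 1 was left out. SLC7A14 fell slightly, from 63.1 ± 4.21 to 53.9 ± 2.14 CPM (log2 fold change -0.23, adjusted p = 6.02e-06). SLC7A4 rose from 4.89 ± 0.734 to 6.90 ± 0.660 CPM (log2 fold change 0.51, adjusted p = 0.000471), a call that was lost under DESeq2, limma voom and in 4 of the 6 fits that left out a library. SLC7A4 shares 73.6% of its annotated length with another gene on the same strand, and read pairs in the shared stretch could not be assigned.

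SLC43A, whose members SLC43A1 and SLC43A2 carry large neutral amino acids without sodium, was divided too. SLC43A1 fell from 14.7 ± 0.152 to 9.52 ± 0.702 CPM (log2 fold change -0.63, adjusted p = 2.04e-09) and SLC43A2 from 24.0 ± 1.87 to 17.5 ± 1.01 CPM (log2 fold change -0.46, adjusted p = 1.8e-08). SLC43A3, the purine nucleobase carrier, was at 11.7, 10.1 and 10.8 CPM in control and 38.8, 38.6 and 39.0 CPM in OC2-OE libraries (log2 fold change 1.83, SE 0.07, adjusted p = 4.45e-48). It shares 29.9% of its length with an unnamed gene on the same strand that had 16 counts in all.

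**Figure D3:**
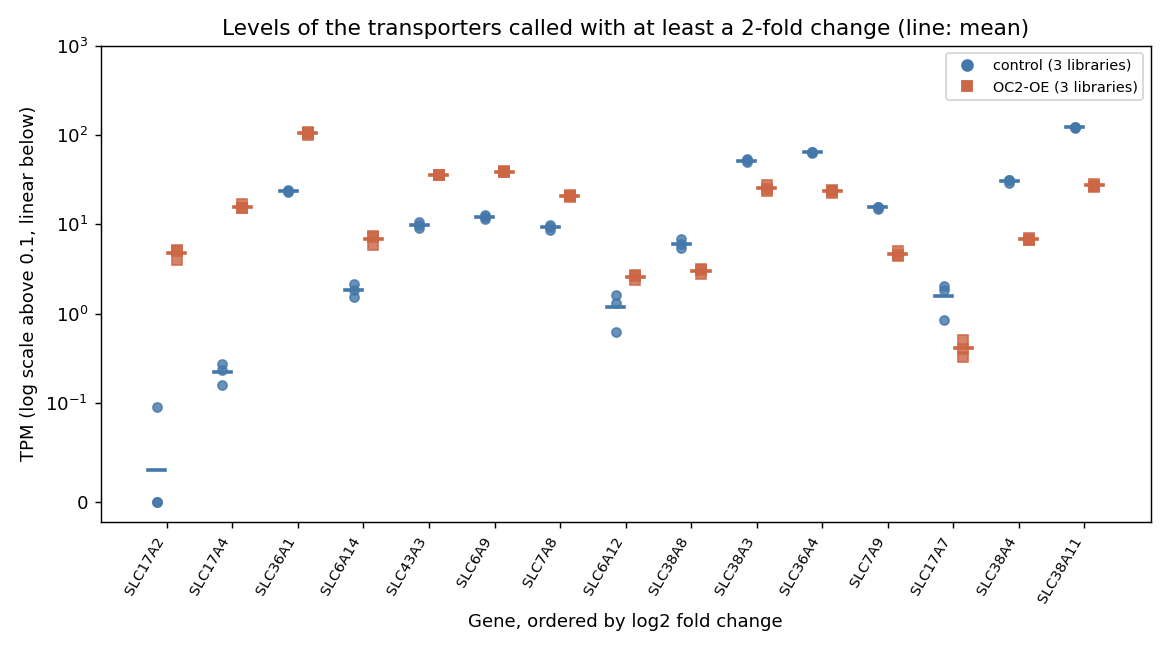
TPM (vertical axis, log scale above 0.1 and linear below) of the 15 transporters called with at least a 2-fold change, from the highest to the lowest log2 fold change, with 1 point for each library and a line for each mean. Control and OC2-OE libraries do not overlap for any of the 15, which were chosen for their change, nor for 73.2% of all tested genes. Single control libraries lie low for SLC6A12 and SLC17A7.

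SLC6A carriers clear transmitters and osmolytes in sodium- and chloride-dependent transport. Of the 9 tested, 5 rose and 3 fell, where 27.8% and 28.7% of all tested genes were called higher and lower. SLC6A9, the glycine transporter of glial cells, was at 15.4, 16.4 and 14.8 CPM in control and 48.1, 48.1 and 50.2 CPM in OC2-OE libraries, without overlap (log2 fold change 1.65, SE 0.06, adjusted p = 2.36e-49). The other glycine transporter, SLC6A5, had 2 counts in control and 23 in OC2-OE cells, a ratio of 10.9 (95% counting interval 2.68 to 95.1), too few for the test. Without the filter on low counts it was called higher.

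SLC6A14, a carrier of broad range for neutral and cationic amino acids, rose from 2.36, 1.73 and 2.03 CPM to 7.88, 8.02 and 6.37 CPM (log2 fold change 1.85, SE 0.16, adjusted p = 8.15e-20). SLC6A15, for branched-chain amino acids and proline, rose from 16 ± 0.51 to 29.9 ± 1.23 CPM (log2 fold change 0.91, SE 0.07, adjusted p = 1.42e-23), and the creatine carrier SLC6A8 from 17.7 ± 1.23 to 29.3 ± 0.396 CPM (log2 fold change 0.73, SE 0.07, adjusted p = 4.42e-18). The highest TPM of the family in control was that of SLC6A17, a carrier of neutral amino acids on synaptic vesicles. It fell from 107, 99.4 and 113 CPM to 51.9, 55.5 and 57.5 CPM (log2 fold change -0.95, SE 0.04, adjusted p = 5.32e-39). The taurine carrier SLC6A6 fell from 48.5 ± 1.63 to 28.3 ± 1.66 CPM (log2 fold change -0.78, SE 0.06, adjusted p = 8.51e-26).

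The plasma membrane transporters of GABA described here were undetected or low. SLC6A11, a GABA carrier of astrocytes, had 0 counts. SLC6A12, for betaine and GABA, was at 1.71, 2.09 and 0.799 CPM in control and 3.34, 3 and 3.40 CPM in OC2-OE libraries, with control replicate 3 low (log2 fold change 1.07, SE 0.22, adjusted p = 9.66e-06). Without that library the log2 fold change was 0.78 and the adjusted p 0.00159, so the call rests on it. SLC6A13, its neighbour for GABA and taurine, overlapped between groups at 1.92 ± 0.425 and 2.86 ± 0.846 CPM (log2 fold change 0.60, SE 0.22, adjusted p = 0.0107).

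Of the monoamine transporters, SLC6A3, for dopamine, was at 15.4, 14 and 16.2 CPM in control and 11.2, 12.3 and 13 CPM in OC2-OE libraries (log2 fold change -0.33, SE 0.09, adjusted p = 0.000597). The groups were close, and the adjusted p ranged from 0.000382 to 0.0153 over the alternatives, so this call is weak. SLC6A4, for serotonin, had 3 counts in control and 27 in OC2-OE cells, a ratio of 8.5 (95% counting interval 2.62 to 43.8), and was called only without the filter on low counts. SLC6A2, for noradrenaline, had 0 counts, but 28.6% of its annotated length is shared with another gene on the same strand and could not be assigned. SLC6A19, a kidney and gut carrier of neutral amino acids, had 8 counts in control and 1 in OC2-OE cells, a ratio of 0.118 (95% counting interval 0.00266 to 0.881).

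Of the vesicular transporters of glutamate and GABA, only SLC17A7 had enough counts to be tested. SLC17A6 and SLC32A1, which load glutamate and GABA into vesicles, had 0 counts, and SLC17A8 had 3 counts in control and 6 in OC2-OE cells. SLC17A7, the vesicular glutamate transporter of cortical neurons, was at 2.68, 2.99 and 1.23 CPM in control and 0.574, 0.462 and 0.714 CPM in OC2-OE libraries. It fell without overlap although control replicate 3 was low (log2 fold change -1.97, SE 0.31, adjusted p = 1.16e-08), and the log2 fold change was -2.26 without that library. SLC17A5, which exports sialic acid from lysosomes, was the most abundant of the family at 60.7 ± 1.40 TPM in control. It rose from 51.2 ± 1.08 to 62.7 ± 4.15 CPM (log2 fold change 0.29, SE 0.05, adjusted p = 1.58e-08). SLC17A9, the vesicular nucleotide transporter, had 1 count in each group.

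The largest changes of all were in SLC17A2 and SLC17A4, carriers of phosphate, urate and other organic anions in kidney, liver and gut. SLC17A4 had 5, 3 and 5 counts in control libraries and 354, 290 and 310 in OC2-OE libraries, which was 0.251 ± 0.0656 and 17.4 ± 0.933 CPM (log2 fold change 6.08, SE 0.20, adjusted p = 8.3e-56). SLC17A2 had 0, 1 and 0 counts in control libraries and 59, 42 and 56 in OC2-OE libraries, a ratio of 148 (95% counting interval 26.2 to 5890, adjusted p = 2.45e-22 from edgeR). Without control replicate 2, which held the only control count, SLC17A2 was at least 33.4-fold higher, taken against 3 counts over the remaining control libraries. At 15.7 TPM for SLC17A4 and 4.73 TPM for SLC17A2, both were far below the 188 TPM of SLC3A2 in OC2-OE cells.

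SLC17A4, SLC17A1, SLC17A3 and SLC17A2 lie in this order on chromosome 6 between 25754699 and 25930691 (GRCh38). SLC17A1, 1.72 kb from SLC17A4, had 0 counts in control and 1 in OC2-OE cells, and SLC17A3 had 1 and 9, a ratio of 8.5 (95% counting interval 1.18 to 373). The outer genes of the cluster thus reached the test and the inner ones did not. On chromosome 12, SLC38A1, SLC38A2 and SLC38A4 are separated by 88.2 and 392 kb and had log2 fold changes of -0.03, -0.75 and -2.20, in map order. On chromosome 11, SLC43A3 and SLC43A1 are 57.0 kb apart and went in opposite directions. SLC36A1 on chromosome 5 rose beside SLC36A2 and SLC36A3, which were at the limit of detection in both groups.

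**Figure D4:**
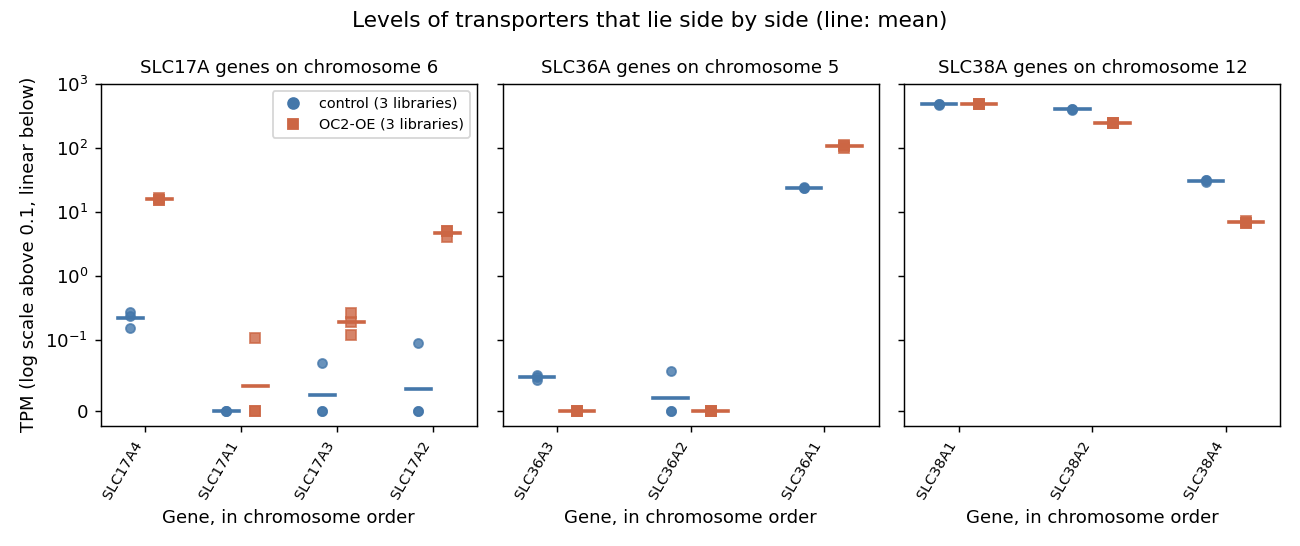
TPM (vertical axis, log scale above 0.1 and linear below) of SLC17A genes on chromosome 6, SLC36A genes on chromosome 5 and SLC38A genes on chromosome 12, in chromosome order, with 1 point for each library and a line for each mean. SLC17A4 and SLC17A2 are far higher in OC2-OE with SLC17A1 and SLC17A3 near 0 between them, SLC36A1 alone of its group is expressed, and SLC38A2 and SLC38A4 but not SLC38A1 are lower in OC2-OE.

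Promoters of the transporters were searched for motifs because OC2 binds DNA directly. Sequences of 250 bases before to 50 bases after the start site came from RefSeq (GRCh38.p14), with 1 start site a gene, and matched 53 of the 68 transporters by symbol. The bases after the start site were found in an annotated transcript of the same gene for 45 of the 53. In all, 4 motifs were searched on both strands, and overlapping matches of different motifs were counted separately: ATCAAT and ATCGAT, cores bound by ONECUT factors, TGATGNAA, the core of the amino acid response element bound by ATF4 and C/EBP proteins, and CACGTG, the E-box. The promoters shown are those of SLC17A2, SLC17A4 and SLC36A1, which rose the most, of SLC6A9, which was picked for its match and not for the size of its change, and of SLC38A11 and SLC38A4, which fell the most. The 250 bases before each start site are given 5′ to 3′ along the gene, with matches of ATCAAT on either strand in capitals.
SLC17A2 (chr6:25930692-25930941, minus strand): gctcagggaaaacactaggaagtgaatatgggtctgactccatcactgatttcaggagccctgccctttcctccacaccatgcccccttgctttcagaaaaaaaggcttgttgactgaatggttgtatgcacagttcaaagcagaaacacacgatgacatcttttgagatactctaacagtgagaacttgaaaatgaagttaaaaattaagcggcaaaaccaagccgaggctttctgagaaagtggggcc
SLC17A4 (chr6:25754449-25754698, plus strand): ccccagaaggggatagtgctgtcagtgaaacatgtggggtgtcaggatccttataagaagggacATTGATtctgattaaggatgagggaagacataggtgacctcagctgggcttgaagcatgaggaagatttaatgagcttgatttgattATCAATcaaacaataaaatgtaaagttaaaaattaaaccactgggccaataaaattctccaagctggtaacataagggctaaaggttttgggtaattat
SLC36A1 (chr5:151436796-151437045, plus strand): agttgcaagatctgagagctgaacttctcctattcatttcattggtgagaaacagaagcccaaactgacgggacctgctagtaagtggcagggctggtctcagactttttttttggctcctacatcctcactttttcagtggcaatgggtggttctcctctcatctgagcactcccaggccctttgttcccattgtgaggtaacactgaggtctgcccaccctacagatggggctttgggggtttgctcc
SLC6A9 (chr1:44031463-44031712, minus strand): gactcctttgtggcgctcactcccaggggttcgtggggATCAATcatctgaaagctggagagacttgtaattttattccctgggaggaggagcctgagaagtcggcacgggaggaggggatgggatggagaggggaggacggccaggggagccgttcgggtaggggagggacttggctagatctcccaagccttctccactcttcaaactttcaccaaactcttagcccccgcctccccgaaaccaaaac
SLC38A11 (chr2:164955526-164955775, minus strand): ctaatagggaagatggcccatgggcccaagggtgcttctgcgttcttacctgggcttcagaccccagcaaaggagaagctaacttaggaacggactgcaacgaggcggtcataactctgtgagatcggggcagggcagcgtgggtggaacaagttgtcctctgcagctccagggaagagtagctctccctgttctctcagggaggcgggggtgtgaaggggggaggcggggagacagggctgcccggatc
SLC38A4 (chr12:46825998-46826247, minus strand): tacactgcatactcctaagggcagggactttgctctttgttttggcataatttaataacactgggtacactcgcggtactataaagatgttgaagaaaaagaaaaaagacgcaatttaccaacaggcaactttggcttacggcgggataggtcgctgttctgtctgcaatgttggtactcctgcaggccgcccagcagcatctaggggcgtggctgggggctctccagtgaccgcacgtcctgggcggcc

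ATCAAT was in 2 of the 53 windows (3.77%), both of genes that rose, and in 6.26% of all 35116 promoters. One of these genes was SLC17A4, where it began 186 bases before the start site on the minus strand and 99 bases before it on the plus strand of the gene. The other was SLC6A9, with a match that began 212 bases before the start site. ATCGAT was in no window of the 53, beside 0.763% of all promoters. SLC36A1, SLC38A11 and SLC38A4 held none of the 4 motifs in these windows. For SLC38A4, SLC38A1, SLC3A2, SLC17A3, SLC17A7, SLC7A7, SLC7A8, SLC38A9, SLC43A2 and SLC1A6, among others, the start site used lies inside the longer annotated span. Other start sites of these genes were not searched.

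TGATGNAA was in 6 of the 53 windows (11.3%) and in 3.62% of all promoters. It was found in SLC3A2 and SLC7A1, which rose, in SLC17A7, which fell, in SLC38A1, which did not pass the threshold, and in SLC1A3 and SLC17A3, which were not tested. CACGTG was in 7 windows (13.2%) and in 7.26% of all promoters. Of the called genes it was found in SLC7A5, SLC17A2, SLC38A7 and SLC43A1, the first 3 higher and the last lower. A match of letters is a description of these windows and not a measured binding site.

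Genes that work with the transporters were read from lists written by function. The amino acid shortage response, in which the kinase GCN2 (EIF2AK4) raises translation of the transcription factor ATF4, had 31 genes tested, with 21 higher and 3 lower in OC2-OE, where 27.8% and 28.7% of all tested genes were called (median log2 fold change 0.26, beside 0.01 for all tested genes). Most of the 21 rose by less than 2-fold, among them NARS1 (log2 fold change 0.16) and MTHFD2 (0.10). SHMT2 was among the 3 that fell, and PSAT1, PSPH and PYCR1 missed the threshold. The list was abundant, with a sum of 5940 to 5990 CPM in control and 7310 to 7350 CPM in OC2-OE libraries. NUPR1, 1 of the 3 that fell, passed the filter only through its control libraries. STC2, a secreted glycoprotein induced by stress, went from 55.6 ± 3.27 to 193 ± 0.471 CPM (log2 fold change 1.80, SE 0.04, adjusted p = 4.31e-78). The transcription factor CEBPB went from 24.9 ± 3.29 to 72.4 ± 4.54 CPM (log2 fold change 1.54, SE 0.06, adjusted p = 3.22e-29) and DDIT3 (CHOP) from 55.4 ± 2.92 to 142 ± 8.86 CPM (log2 fold change 1.36, SE 0.04, adjusted p = 1.7e-47). ATF4 mRNA itself was at 499.6 and 519 CPM and missed the threshold (adjusted p = 0.0200).

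Of 37 tested genes for amino acid sensing by mTORC1, 10 were higher and 10 lower, with a median of 0.01, and the share called was close to the 56.5% over all tested genes. SESN2, the leucine sensor that restrains the pathway, rose from 50.6 ± 1.65 to 117 ± 3.71 CPM (log2 fold change 1.21, SE 0.04, adjusted p = 5.23e-55), and MIOS, a subunit of the GATOR2 complex, from 36.7 ± 3.14 to 59.0 ± 3.23 CPM (log2 fold change 0.68, SE 0.05, adjusted p = 7.52e-23). SESN2 is on both lists and was also counted among the higher genes of the amino acid shortage response. RPTOR, the subunit that defines mTORC1, fell from 180.3 ± 0.999 to 89.6 ± 2.7 CPM (log2 fold change -1.01, SE 0.03, adjusted p = 4.34e-56). Among carriers outside the 9 families, 6 of 20 tested genes were higher and 6 lower, with a median of 0.07, and the share called was again close to that 56.5%. SLC29A4, a monoamine transporter of the plasma membrane, fell from 116 ± 3.11 to 27.2 ± 0.155 CPM (log2 fold change -2.10, SE 0.05, adjusted p = 1.46e-74). SLC15A3, a peptide and histidine carrier of endolysosomes, fell the most on this list, from 9.03 ± 0.693 to 0.425 ± 0.137 CPM (log2 fold change -4.40, SE 0.22, adjusted p = 1.15e-38), and was added after its values were seen, having passed the filter only through its control libraries. The peptide carrier SLC15A1 rose from 2.49 ± 0.204 to 9.27 ± 1.18 CPM (log2 fold change 1.89, SE 0.15, adjusted p = 2.34e-23), and the mitochondrial aspartate/glutamate carrier SLC25A12 from 23.0 ± 0.646 to 59.5 ± 2.49 CPM (log2 fold change 1.37, SE 0.06, adjusted p = 6.64e-47).

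Enzymes and the vesicle carrier of transmitter metabolism were mostly lower. Of 17 tested genes for synthesis, breakdown and packaging, 10 fell and 2 rose, where 28.7% and 27.8% of all tested genes were called, with a median log2 fold change of -0.76. With at least a 2-fold change, 8 were lower and 0 higher, where 9.04% and 8.29% of all tested genes were called, and DBH, among the 8, passed the filter only through its control libraries. DDC, which makes dopamine and serotonin from their precursors, was at 503 ± 14 CPM in control and 87.3 ± 2.62 CPM in OC2-OE (log2 fold change -2.52, SE 0.03, adjusted p = 5.81e-106). TPH2, which starts serotonin synthesis, fell from 16.5 ± 1.70 to 1.35 ± 0.397 CPM (log2 fold change -3.60, SE 0.15, adjusted p = 2.3e-46), and HNMT, which inactivates histamine, from 29.5 ± 0.723 to 5.88 ± 0.103 CPM (log2 fold change -2.32, SE 0.09, adjusted p = 8.83e-50). GAD1, which makes GABA, was at 50.2 ± 0.293 and 47.5 ± 2.77 CPM and missed the threshold (adjusted p = 0.126). GLUL, which makes glutamine from glutamate, fell by 0.69 on the log2 scale. GAD1 and GLUL were chosen after their values were seen.

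Of 30 tested receptors for glutamate, GABA and glycine, 13 were lower and 6 higher, with a median log2 fold change of -0.60, where 28.7% and 27.8% of all tested genes were called. With at least a 2-fold change as well, all 6 higher receptors stayed but only part of the 13 lower ones did. At that limit 8.29% of all tested genes were called higher and 9.04% lower. Of the called receptors, GRIN3B, GRIA3 and GABRP passed the filter on low counts only through their OC2-OE libraries, and GRIA1 and GABRG3 only through their control libraries. GABBR2, a subunit of the GABA-B receptor, fell from 84.7 ± 2.08 to 10.9 ± 0.645 CPM (log2 fold change -2.96, SE 0.06, adjusted p = 5.91e-78). GABBR1, the other subunit of that receptor, rose from 12.2 ± 0.970 to 31.1 ± 1.92 CPM (log2 fold change 1.35, adjusted p = 2.16e-34) and was added after its values were seen. GABRP, a GABA-A subunit known from epithelia, had 0 counts in control and 647 in OC2-OE libraries (11.8 ± 1.04 CPM), at least 204-fold higher, taken against 3 counts over the control group.

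**Figure D5:**
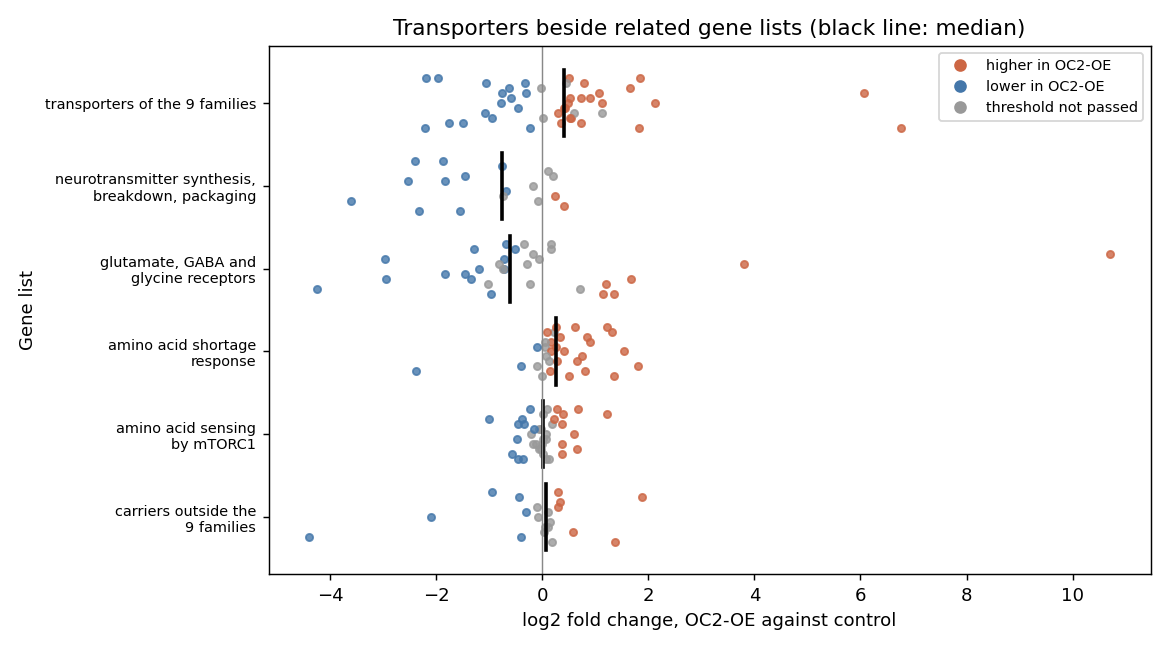
Log2 fold change of OC2-OE against control (horizontal axis) for each tested gene of the 9 transporter families and of 5 related lists, with colour for the call and a black line for the median of each list. The medians are -0.76 for transmitter metabolism and -0.60 for receptors, and 0.42 for the transporters and 0.26 for the amino acid shortage response, and the fitted value of GABRP depends on the prior count since its control counts are 0.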

How the data were processed

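The authors prepared stranded poly(A) libraries, and per the labels and file headers aligned reads with STAR 2.7.9a and counted read pairs by strand on GENCODE 42 genes (GRCh38) with featureCounts 1.6.0. The authors deposited these raw counts per gene and library without normalization or filter. Here counts were scaled by TMM, filtered with filterByExpr and tested with edgeR 4.0.16 (robust quasi-likelihood, R 4.3.3, no replicate term, Benjamini-Hochberg over all 17307 tested genes). The threshold of 0.001 is the one used in the study's analysis. Standard errors were obtained as |log2 fold change| over the root of the F statistic. TPM used featureCounts gene lengths. Symbols matched 62672 of 62696 genes. Genes were named if called with at least a 2-fold change, if among the 2 highest of a family, or if heavy chains, their partners or transmitter carriers. In the related lists, the 3 called genes with the largest change and a mean of at least 5 CPM over all libraries were named. Other values were chosen after they were seen. Some genes that these rules name are not reported here. Members and lists were chosen with earlier results of these data known. Alternatives covered normalization, test (DESeq2 1.42.0, limma 3.58.1), filter, ONECUT2 left out, replicate block, each library left out, thresholds and length correction. The main edgeR test was checked on simulated counts with known fold changes, and the other steps were not.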

Additional observations from a re-analysis of the deposited data

How the results depend on the processing

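No called transporter of the naming rule changed direction under the 17 alternatives, with SLC17A2, SLC17A4 and SLC17A7 not tested in 1 of them, and the median log2 fold change of all tested genes moved by at most 0.06 under any of them. Across groups, libraries of the same number 1 to 3 correlated at -0.00331, 0.0205 and 0.0146, and those of different numbers at -0.022 to 0.00711. The variance within groups was only 1.31 to 2.1 times that of counting alone. These correlations therefore cannot decide whether libraries were paired. With the replicate number as a block 21 transporters were higher and 16 lower, all 37 shared with the unblocked test. Leaving out each library in turn gave 20 to 21 higher, 15 to 16 lower and 8944 to 9340 called genes in all. The call of SLC6A3 was lost under library size only, upper-quartile normalization, DESeq2, limma voom, no filter and without control replicate 1 or 3 or OC2-OE replicate 1 or 2, and the cause was not tested. Calling only changes of 1 or more in absolute log2 left 2999 genes, with 8 transporters higher and 7 lower. Of all tested genes, 8.29% were then called higher and 9.04% lower. By family this left 0 higher and 0 lower in SLC1A, 0 higher in SLC3A, 3 higher and 0 lower in SLC6A, 1 higher and 1 lower in SLC7A, 0 higher and 4 lower in SLC38A, and 1 higher and 0 lower in SLC43A. In the lists it left 0 higher and 8 lower for transmitter metabolism, 6 higher and 8 lower for receptors, 5 higher and 1 lower for amino acid shortage, 1 higher and 1 lower for mTORC1 sensing, and 2 higher and 2 lower for other carriers. Requiring 10 counts in every library left 1 SLC17A gene higher and 0 lower, since SLC17A2, SLC17A4 and SLC17A7 were then untested, and 3 receptors higher. Without length correction the 5 highest genes in control held 61.8% of the transporter sum, but they were not the same 5. SLC7A1 then ranked 4 and SLC7A5 ranked 7, whereas by TPM SLC7A5 ranked 4 and SLC7A1 ranked 6. The 26 transporters with too few counts could not be tested at this depth.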
